A study of Mus musculus with 8 samples.

Results

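The SOX4 knockout (SOX4KO) lines H7, M4 and H4 of mouse mammary tumor organoids were each represented by 1 bulk RNA-sequencing library, and the levels of their genes were compared line against line. Of 38293 genes counted, 11827 had 10 or more reads in at least 1 of the 3 lines and formed the set described here. In single lines, 11380 genes in H7, 11074 in M4 and 11430 in H4 reached this count, and 10766 did so in all 3. All organoids came from mice carrying MMTV-PyMT, MMTV-Cre and Ecadherin-mCFP, in which the mouse mammary tumor virus promoter drives the polyoma middle T oncogene and Cre in mammary epithelium and a cyan fluorescent protein is fused to E-cadherin. The SOX4KO lines carry CRISPR/Cas9 insertions or deletions in Sox4, and the control lines WT1 and WT3 come from the same model. RNA was taken 4 days after the organoids had been split to single cells, from medium with B27 and FGF2. Each line is 1 culture with 1 library, so a difference between lines has no replicate check, and the effect of a clone, of its passage and of its library cannot be told apart. The difference between WT1 and WT3 for the same gene was taken as the reference for how far 2 lines of 1 genotype lie apart.

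SOX4 is a transcription factor of the SRY-related HMG box family that is active in progenitor cells and in many carcinomas. The mammary epithelium has a luminal layer, marked by keratins 8 and 18 and able to make milk proteins, and a basal layer, marked by keratins 5 and 14. Tumors driven by polyoma middle T are mainly luminal and hold cells with basal keratins. Lines raised from single cells of a tumor can differ in lineage state, in signalling state and in chromosome content, and such states can be passed on to the cells of the line.

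Reads counted on genes numbered between 3050323 in M4 and 4678497 in WT3. Levels are given as normalized CPM, the reads of a gene divided by its library's total after scaling by the trimmed mean of M-values (TMM). Luminal keratin 8 was at 456 and 471 CPM in WT1 and WT3 and at 321, 470 and 381 in H7, M4 and H4, and Epcam lay between 593 and 865 CPM in the 5 lines. Of 14 immune markers, 1 reached 10 reads in a SOX4KO line, which was the lysosomal protein gene Cd68 at 14.1 CPM in H7 and 1.39 to 3.6 in the other 4 lines. The fibroblast markers Col1a1, Col6a3, Dcn, Pdgfra, Pdgfrb and Pdpn reached 10 reads too. Col1a1 lay between 48.3 and 219 CPM and Pdgfra between 41.4 and 99.8 in the 5 lines. Dcn, Pdgfrb and Pdpn were at least 2-fold lower, on log2(CPM + 1), in H4 than in both H7 and M4. Col1a1, Col6a3 and Pdgfra were not.

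Sox4 transcripts were still present in every SOX4KO line. Sox4 was at 295 CPM in WT1 and 374 in WT3, and at 199, 179 and 299 in H7, M4 and H4. H4 lay between the controls, whereas H7 and M4 lay below both. The log2 difference between SOX4KO and control lines was −0.57 ± 0.25 (SE, 3 against 2 lines), which was not past an adjusted p of 0.1 (adjusted p = 0.277, edgeR quasi-likelihood test). Such p-values weigh the difference against the spread between these lines, in which clone, passage and library cannot be told apart. Small insertions and deletions can leave a transcript in place, so the level of RNA is a weak check of the labels.

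The 3 SOX4KO lines differed more from one another than the control lines did. The median absolute difference in log2(CPM + 1) over the 11827 genes was 0.36 between H7 and M4, 0.25 between H7 and H4 and 0.32 between M4 and H4, against 0.19 between WT1 and WT3. Genes at least 2-fold apart numbered 876 (7.41%), 767 (6.49%) and 878 (7.42%) in these 3 pairs and 269 (2.27%) in the control pair. Among the 9540 genes with a mean of 10 CPM or more over the 5 libraries, the counts were 447 (4.69%), 324 (3.4%) and 441 (4.62%) against 128 (1.34%). With all libraries thinned to the depth of M4 the control pair was again the closest, with 283 genes apart against 797 to 900. With only 1 pair of controls, it cannot be said how far other control lines would have lain apart.

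**Figure D1:**
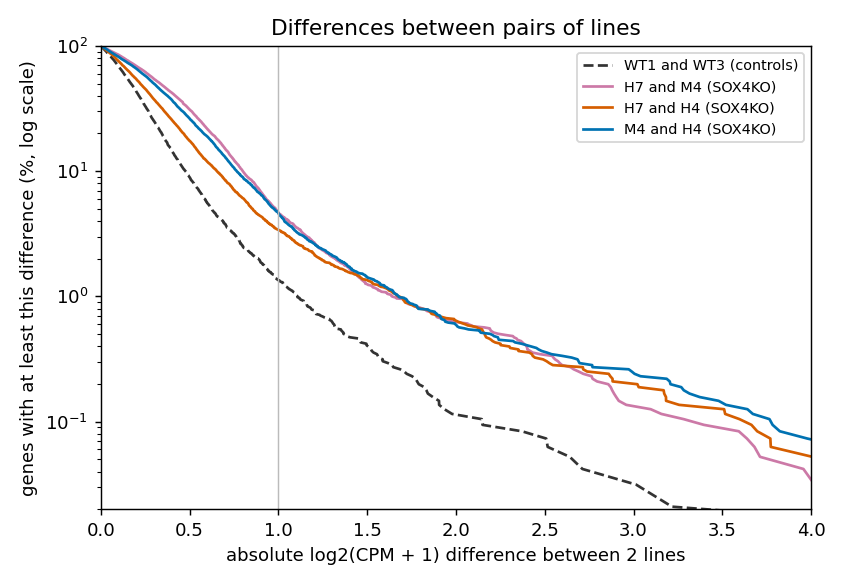
Share of the 9540 genes with a mean of 10 CPM or more (vertical axis, percent, log scale) whose absolute log2(CPM + 1) difference between 2 lines is at least the value on the horizontal axis. Each curve is 1 pair of lines. At a difference of 1, marked by the grey line, the 3 SOX4KO pairs stand at 4.69%, 3.4% and 4.62% and the control pair at 1.34%.

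A gene was counted as higher or lower in a line when it lay at least 2-fold, on log2(CPM + 1), above or below both other SOX4KO lines. H7 had 159 such genes higher (1.34% of the 11827) and 99 lower (0.837%), M4 had 116 higher (0.981%) and 164 lower (1.39%), and H4 had 145 higher (1.23%) and 155 lower (1.31%). In all, 771 genes were apart in some line, or 6.52%. With a mean of 10 CPM or more, H7 had 71 higher (0.744%) and 36 lower (0.377%), M4 had 44 (0.461%) and 94 (0.985%), and H4 had 61 (0.639%) and 60 (0.629%). At that level 326 of 9540 genes were apart (3.42%), and WT1 and WT3 were themselves 2-fold apart for 51 of the 326. The edgeR comparison of the genotypes called 6.27% of 11682 genes, with 479 higher (4.1%) and 254 lower (2.17%) in the SOX4KO lines. It called 40 of these 326 genes, or 12.3%, beside 6.47% of all 9540. The called genes themselves were shared in size: the median log2 difference from the control mean among the 479 was 1.36 in H7, 1.26 in M4 and 1.21 in H4, and among the 254 it was −1.17, −1.15 and −1.21. These genes were chosen on the same 3 lines, so the values are a description.

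**Figure D2:**
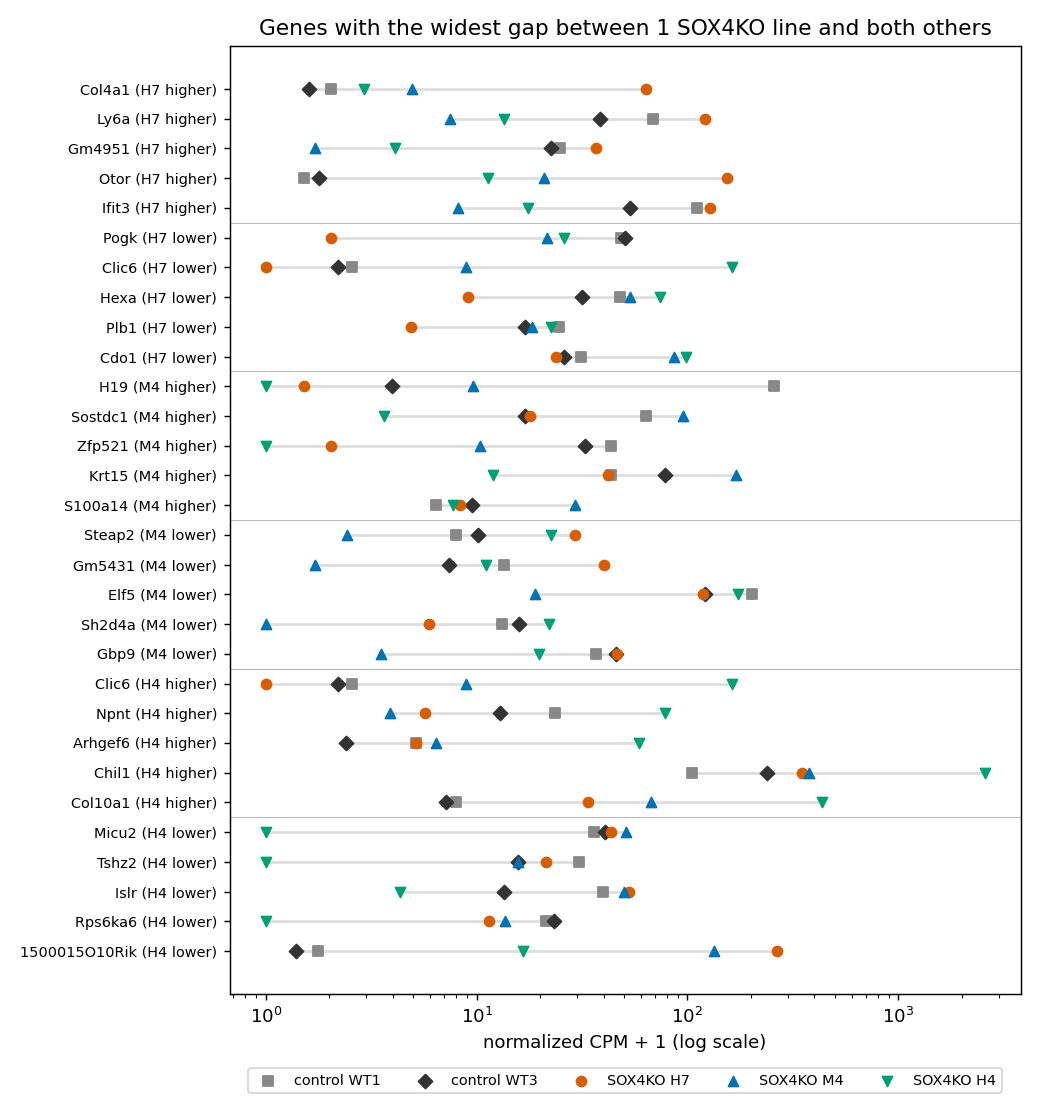
Level in each of the 5 bulk libraries (horizontal axis, CPM + 1, log scale) of the 5 genes with the widest gap to the nearer of the other SOX4KO lines, for each line and direction. Each point is 1 library. Circles for H7, upward triangles for M4 and downward triangles for H4 stand at one end in their own blocks, and control squares and diamonds lie with the one line for some genes (Ifit3) and with the pair for others (Col4a1, Micu2).

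Most interferon response genes differed between the SOX4KO lines. These genes are switched on by type I and II interferon, or by sensing of nucleic acid inside the cell, through transcription factors that include IRF9 and IRF7, and many encode antiviral proteins. All 28 genes of an interferon response list were measured, and 20 of them (71.4%) were apart in some line, beside 3.42% of all 9540 genes. Of the 28, 17 were higher in H7, 5 were lower in M4, 3 of them (Ifi44, Ifit3 and Xaf1) counted in both, and 1, Ifi27, was lower in H7. The median difference of a line from the mean of the other 2 SOX4KO lines on the log2 scale was 1.55 in H7, −1.22 in M4 and −0.38 in H4, while WT1 minus WT3 had a median of 0.39.

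Irf7, the transcription factor that amplifies the response, was at 1151 and 1084 CPM in WT1 and WT3, at 1057 in H7, and at 202 and 357 in M4 and H4. Isg15, a ubiquitin-like protein, was at 347 and 199.5 CPM in WT1 and WT3, at 204 in H7, at 61.9 in M4 and at 71.4 in H4. Usp18, which removes ISG15 from its targets, was at 121 and 103 CPM in the controls, at 104 in H7, at 13.3 in M4 and at 22.8 in H4. For these 3 genes H7 lay near or between the controls, and M4 and H4 lay below both with M4 the lowest. Ifit3, an antiviral protein that binds IFIT1, had the widest gap of the list, with 109.5 and 52.4 CPM in the controls, 126 in H7, 7.20 in M4 and 16.5 in H4. B2m, the light chain of MHC class I, was at 1796, 1831 and 1802 CPM in WT1, WT3 and H7 and at 655 and 891 in M4 and H4. B2m is from a separate list of antigen presentation genes and was its only measured gene apart in any line. H2-D1, Tap1 and Psmb9 of that list were also highest of the SOX4KO lines in H7. Tap2 was at 107.5, 98.3 and 105.6 CPM and Psmb10 at 26.9, 23.8 and 28.3 in H7, M4 and H4. Ifi27 went the other way, with 61.6, 110 and 78.3 CPM in WT1, WT3 and H7 and 235 and 177 in M4 and H4.

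The summed level of the list was 5817 and 4630 CPM in the controls, 5122 in H7, 1451 in M4 and 2137 in H4. Over all 9540 genes, 32 (0.335%) had H7 and both controls at least 2-fold above M4 and H4. Of these 32 genes, 12 belong to the list, and the others include the interferon-inducible GTPases Igtp, Iigp1, Irgm1, Tgtp1 and Gbp7. The reverse arrangement, H7 and both controls 2-fold under M4 and H4, held for 8 genes (0.0839%). For the other lines, 8 genes (0.0839%) had M4 and 13 (0.136%) had H4 together with both controls above the remaining pair, and none of them was in the list.

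The genotype comparison of the list turned on H7. With all lines, edgeR called 1 of 28 genes lower (Oas1a, log2 difference −1.38, adjusted p = 0.0761) and 0 higher, and DESeq2 called 3 lower. Before adjustment, 9 were lower at p under 0.05 and 0 higher. Without H7, 23 of the 28 were called lower and 1 higher. Irf7 then stood at −2.00 against −1.05 ± 0.56 (SE) with all lines (adjusted p = 0.385, edgeR). Usp18 stood at −2.61 against −1.24 ± 0.67 with all lines (adjusted p = 0.39, edgeR). Both genes are among the 32 with H7 and both controls at least 2-fold above M4 and H4. A larger difference without H7 follows from that arrangement, so the fits without H7 are a description. Without M4, 2 of the 28 were called lower. Without H4, WT1 or WT3 edgeR called 0, with 2 to 8 lower at an unadjusted p under 0.05. With no filter beyond 1 count on the genes tested it called 20 lower and 1 higher, so the count of 1 also rests on the filter.

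Promoters of these genes are shown because the genes moved together. A consensus of the interferon-stimulated response element, GAAANNGAAA, was searched on both strands of RefSeq promoters of GRCm38.p6, each covering 250 bases before to 50 bases after the start of a gene. Of the 32 genes with H7 and both controls above M4 and H4, 24 matched a promoter and 15 of these held the motif (62.5%). It was found in 3.49% of all 27025 promoters and in 2.99% of the 7517 promoters of genes with a mean of 10 CPM. On the interferon response list, which shares genes with the 32, 19 of 28 matched a promoter and 11 of these held the motif (57.9%). The 32 genes were picked on their values in these lines, so their share is a description. A match says only that these letters are in the window. The stretches around the matches before the starts of Ifit3, Ifit1 and Isg15 follow, 5′ to 3′ on the strand of the gene, with the matches in capitals.
Ifit3: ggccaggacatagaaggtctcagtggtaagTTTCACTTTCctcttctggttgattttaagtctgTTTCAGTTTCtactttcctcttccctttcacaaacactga
Ifit1: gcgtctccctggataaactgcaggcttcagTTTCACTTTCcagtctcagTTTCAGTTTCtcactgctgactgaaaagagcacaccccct
Isg15: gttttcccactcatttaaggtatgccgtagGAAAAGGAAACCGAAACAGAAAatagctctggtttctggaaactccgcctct
The Ifit3 stretch lies at chr19:34583343-34583446 on the plus strand and holds 2 matches, both reading on the minus strand. The Ifit1 stretch lies at chr19:34640755-34640843 on the plus strand and also holds 2 such matches. The Isg15 stretch lies at chr4:156200845-156200926 on the minus strand and holds 3 overlapping matches that read along the gene. Ifit3 has a near-identical neighbour, Ifit3b, so reads may be split between them.

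Single-cell libraries of the same model showed these genes in another order. GR17 is a control library and GR18 and GR19 are SOX4KO libraries, with 369, 370 and 362 wells of 1000 or more molecules (UMIs), and the labels do not say which bulk line, if any, each shares. UMIs were summed over wells, and intervals are exact Poisson intervals that cover counting error only. Irf7 was at 4.12 CPM in GR17 (95% interval 2.82 to 5.81), at 90.4 in GR18 (84.01 to 97.2) and at 80.4 in GR19 (74.4 to 86.7). Isg15 was at 11.7 CPM in GR17 (9.42 to 14.4), at 140 in GR18 (132 to 149) and at 107 in GR19 (100.3 to 114). Of 27 list genes found, 26 were higher in both SOX4KO libraries than in GR17, beside 38.4% of 6291 genes with a mean of 20 CPM. The list genes were not held to that mean, and some, such as Ifit3 and Mx1, lay below it. The median difference of the list from GR17 was 2.09 on the log2 scale in GR18 and 2.18 in GR19. In bulk the controls were high and 2 of 3 SOX4KO lines low, and in single cells, prepared by another protocol, the control was low and both SOX4KO libraries high. With 1 library a line there is no test of either, and the level of this group did not follow the genotype in 1 direction.

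**Figure D3:**
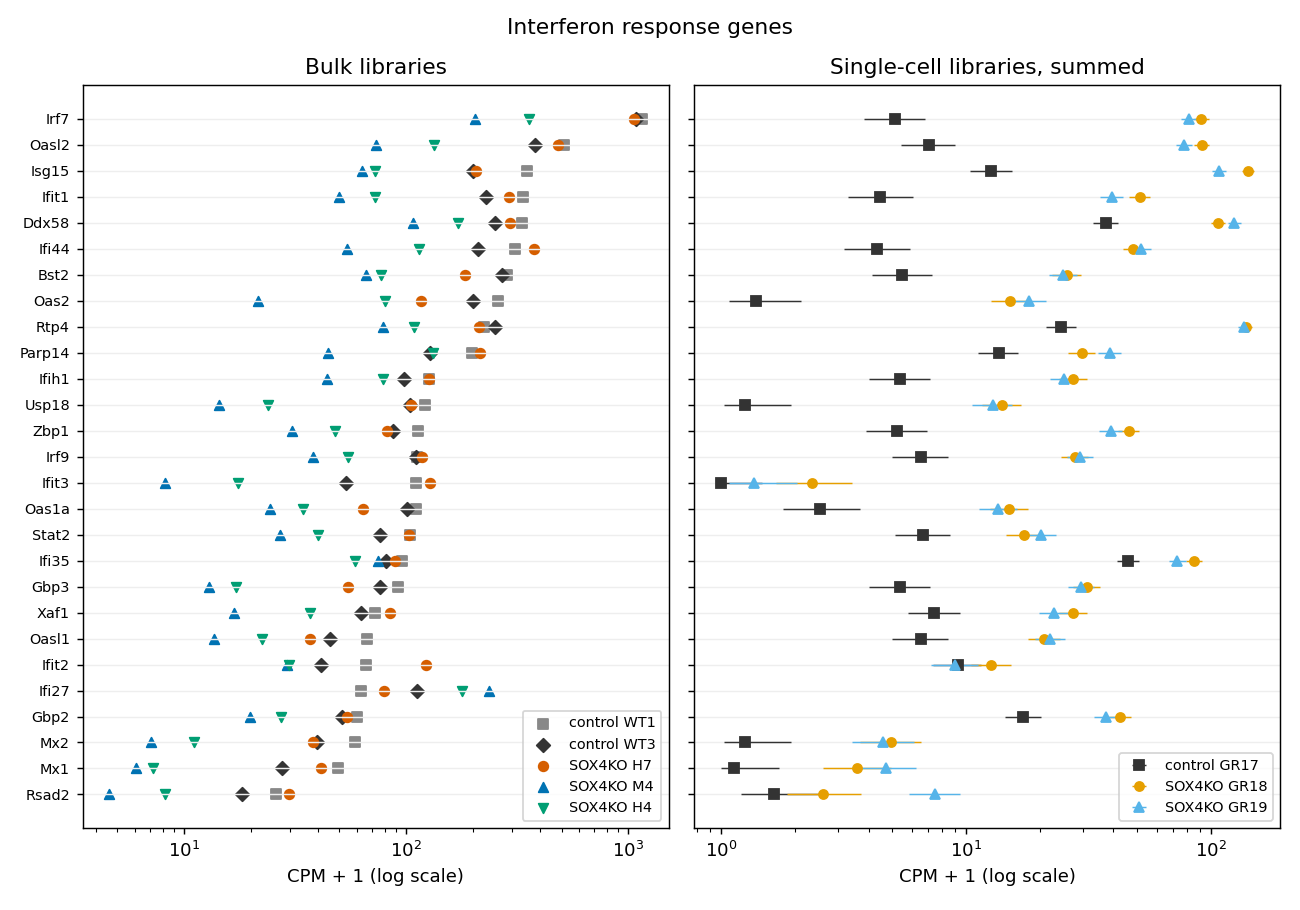
Level of 27 of the 28 interferon response genes (rows) in the 5 bulk libraries (left) and, summed over wells, in the 3 single-cell libraries (right), both as CPM + 1 on a log scale. Points are libraries, and bars on the right are exact 95% Poisson intervals of counting error. In bulk, H7 lies with the controls and M4 and H4 lie to the left for most genes, and in single cells the control GR17 lies to the left of both SOX4KO libraries.

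A second difference lay in keratins and in some secretory genes, with the milk protein gene Csn3 among them. Of 10 keratin genes with a mean of 10 CPM, 6 were apart in some line (60%), and of 11 basal and myoepithelial genes 4 were apart (36.4%), beside 3.42% of all genes at that level. Krt5, Krt14 and Krt15 are counted in both shares. Acta2, Myh11, Cnn1, Tagln, Actg2 and Cdh3, also on the basal and myoepithelial list, did not reach 10 reads in any SOX4KO line. Krt14, the partner of keratin 5 in basal cells, was at 235 and 240 CPM in WT1 and WT3, at 107.5 in H7, at 601.5 in M4 and at 187 in H4. Krt5 was at 191 and 47.8 CPM in WT1 and WT3, at 409.6 and 472 in H7 and M4, and at 112 in H4. Krt15, a keratin of basal and progenitor cells, was at 42.2 and 76.9 CPM in the controls, 40.96 in H7, 169 in M4 and 11.02 in H4. M4 was the highest of the 5 lines for all 3 genes and H4 the lowest of the SOX4KO lines for Krt5 and Krt15. The controls were, however, 4.00-fold apart for Krt5. Of the other measured basal and myoepithelial genes, Id4, Jag2, Trp63, Snai2, Mylk and Lgr6 were highest of the SOX4KO lines in H7. Oxtr and Sparc were highest in M4. For Mylk and Lgr6 M4 was the lowest SOX4KO line, at 139 and 49.3 CPM against 193 and 83.8 in H7. In bulk, fewer cells of a type and less RNA per cell cannot be told apart.

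Krt6a, an inducible keratin of stressed or wounded epithelium, had 44 reads in M4 and 2 to 10 in the other 4 libraries. Krt17 had 1 read in H4 against 16 to 45 elsewhere. Sparc, a matricellular protein of myoepithelial cells, was at 1302 and 732.5 CPM in the controls, and 3763, 5342 and 1692 in H7, M4 and H4. The luminal keratins Krt7 and Krt19 were low in H7, at 46.7 and 20.6 CPM, against 145 and 66.2 in M4 and 211 and 96.3 in H4. Both controls lay above H7 for these 2 genes, at 174 and 139 CPM for Krt7 and 124 and 117 for Krt19. The luminal partners Krt8 and Krt18 were not apart in any line.

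Secretory genes were arranged differently. Csn3, the milk protein kappa-casein, was at 336.5 and 271 CPM in the controls, 741 in H7, 165 in M4 and 2287 in H4, so that the SOX4KO lines lay on both sides of the controls and 2287 stood 13.8 times over 165. Elf5, the transcription factor of alveolar differentiation, was at 202 and 120 CPM in the controls, 118 in H7, 18 in M4 and 172 in H4. M4 was the low library for both. Csn1s1, another casein gene, was not apart in any line. It was at 1.81 and 0.996 CPM in the controls and at 44.9, 22.7 and 34.7 in H7, M4 and H4. It was called higher in the SOX4KO lines (log2 difference 4.62 ± 0.45, adjusted p = 0.00657, edgeR). Btn1a1, Mfge8, Trf and Xdh were not apart either. Wfdc18, a secreted protease inhibitor family member, was highest in M4 and lowest in H7, with 112 and 113 CPM in the controls, 29.5 in H7, 295.5 in M4 and 85.3 in H4. Ltf and Folr1 were higher in H4 than in H7 and M4, but WT1 was above H4 for Ltf. Over 13 measured secretory genes the median difference from the other 2 lines was −0.19 in H7, −0.45 in M4 and 0.74 in H4.

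In the single-cell libraries Csn3 was at 100.4 CPM in GR17, 384 in GR18 and 1741 in GR19, and Elf5 was at 10.4, 12.8 and 74.9. Both genes were thus highest in GR19, but the secretory list as a whole did not differ in this way. Over its 14 genes that reached 10 reads in a bulk SOX4KO line, GR18 was at 0.972 times the level of GR19 as a median. Of these genes 6 were higher in GR18 and 3 were at least 2-fold lower, and 12 were above GR17 in both SOX4KO libraries. Wfdc18 was at 30.1 CPM in GR17, 71.3 in GR18 and 37.1 in GR19. Of the basal keratins, Krt5 was at 1852, 1442 and 515 CPM and Krt14 at 1574, 1635 and 1011, and Krt17 was at 151, 4.42 and 1.44. GR19 was the lowest library for these 3 keratins, but the basal and myoepithelial list as a whole was not lowest in GR19. Over its 12 genes that reached 10 reads in a bulk SOX4KO line, GR19 was at 0.897 times the level of GR17 as a median. Of these genes 6 were higher in GR19 than in GR17 and 4 were at least 2-fold lower. GR18 was at 1.56 times the level of GR19 as a median, with 10 of the 12 higher in GR18.

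Genes of the matrix set H7 and H4 apart. Of 20 collagen genes measured, 8 were apart in some line (40%), beside 3.42% of all genes, but 5 of the 20 were also 2-fold apart between WT1 and WT3, beside 1.34% of all genes. Col4a1, a basement membrane collagen, had 240 reads in H7 and 3 to 11 in the other 4 libraries, which is 62.6 CPM against 0.598 to 3.96. The ratio of H7 to M4 and H4 pooled was 22.9. Col4a1 reached a mean of 10 CPM only through H7, by which it counts among the 8, and it was named for this gap. The ratio is therefore a description. Otor, a small secreted protein of cartilage and inner ear, was at 153 CPM in H7, 19.8 in M4, 10.3 in H4 and under 1 CPM in both controls. It was called higher in the SOX4KO lines (log2 difference 6.45 ± 1.55, adjusted p = 0.0679, edgeR). Otor was also named for its gap in H7, whose value enters this test, so the call is a description. Col11a2, a cartilage collagen, was at 109 CPM in H7 and between 12.4 and 37.5 in the other 4.

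H4 stood out with Col10a1, the collagen of hypertrophic cartilage, at 435 CPM against 32.6 in H7, 66.2 in M4 and 6.99 and 6.17 in the controls. It was called higher in the SOX4KO lines (log2 difference 4.76 ± 1.17, adjusted p = 0.0704, edgeR). Chil1, a secreted chitinase-like protein, was at 2564 CPM in H4, 347 in H7, 376 in M4 and 104 and 237 in the controls. Npnt, a ligand of integrin alpha 8 beta 1, was at 76.9 CPM in H4, 4.70 in H7, 2.88 in M4 and 22.5 and 12.0 in the controls, which lay between H4 and the other 2. Matn2, a matrix adaptor protein, was low in H4 among the SOX4KO lines but higher in all 3 than in the controls. The gene 1500015O10Rik, which encodes a secreted peptide, was at 265 CPM in H7, 132 in M4, 15.6 in H4 and under 1 CPM in both controls, and was called higher (log2 difference 7.85 ± 1.47, adjusted p = 0.0345, edgeR). A common direction from the controls thus went with a 17.05-fold range among the SOX4KO lines for this gene. Col10a1 and 1500015O10Rik were named for their gaps in H4, whose values enter these tests, so the calls are descriptions.

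A few genes had no or almost no reads in 1 line. Micu2, a regulatory subunit of the mitochondrial calcium uniporter, had 0 reads in H4 and 135, 199, 162 and 140 in WT1, WT3, H7 and M4. The lower of H7 and M4 stood 58.8-fold over a floor of 3 reads in H4. Tshz2, a zinc finger transcription factor, had 0 reads in H4 and 41 to 115 elsewhere, which gives 20.5-fold by the same measure. Rps6ka6, a ribosomal S6 kinase on chromosome X, had 0 reads in H4 and 35 to 112 elsewhere, which gives 14.5-fold. Genes on either side were expressed: next to Micu2, Zdhhc20 was at 52.9 CPM in H4 and Rcbtb1 at 13.9.

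In the other lines, Sh2d4a, an SH2 domain protein, had 0 reads in M4 and 19 to 88 elsewhere. Clic6, an intracellular chloride channel family member, had 0 reads in H7, 6 in each control, 22 in M4 and 673 in H4. Pogk, a zinc finger gene, had 4 reads in H7 and 57 to 249 elsewhere, and Hexa, a subunit of the lysosomal enzyme hexosaminidase, was at 8.09 CPM in H7 and between 30.5 and 72.8 in the others. For each of these genes 1 SOX4KO line lay below both controls and both other lines, for Clic6 by only 6 reads against either control.

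The same genes were read in the single-cell libraries. Micu2 had 135 UMIs in GR17, 179 in GR18 and 0 in GR19, which allows up to 3 UMIs. Rps6ka6 had 239, 131 and 4 UMIs, Tshz2 had 4, 4 and 0, and Clic6 had 0, 0 and 15. Sh2d4a had 16, 4 and 39 and Pogk 112, 34 and 72. No Micu2 read was thus counted in 1 of 3 bulk SOX4KO lines and in 1 of 2 single-cell SOX4KO libraries.

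For some further genes M4 stood apart from H7 and H4 but not always from the controls. Sostdc1, a secreted inhibitor of BMP and Wnt signals, was at 93.95 CPM in M4, 16.96 in H7, 2.63 in H4 and 62.4 and 15.9 in WT1 and WT3. Zfp521, a zinc finger gene of progenitor cells, was at 42.2 and 31.7 CPM in the controls, 9.36 in M4, 1.04 in H7 and 0 in H4. It was called lower in the SOX4KO lines (log2 difference −3.60 ± 0.87, adjusted p = 0.0681, edgeR). Zfp521 was named for its gap in M4, whose value enters this test, so the call is a description. H19, an imprinted noncoding RNA, had 24 reads in M4, 2 in H7, 0 in H4, 987 in WT1 and 15 in WT3. The gap between the controls was larger than any gap among the SOX4KO lines for H19. Steap2, a metalloreductase, was at 1.44 CPM in M4, 28.4 in H7, 21.6 in H4 and 6.99 and 9.16 in the controls.

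A stretch at the far end of chromosome 1 ran at a lower level in H7 and M4 than in H4 and both controls. It was found when measured genes were taken along the chromosomes in runs of 25, and its start at Marc2 was set after its values were seen. The 35 measured genes from Marc2 to Cr1l, the last measured gene of the chromosome, had a median deviation from the mean of the 5 lines of 0.42 in WT1, 0.34 in WT3, 0.37 in H4, −0.51 in H7 and −0.54 in M4 on the log2 scale. H7 was at 0.576 times and M4 at 0.56 times the level of H4, as medians over the genes. H7 and M4 were both below WT1, WT3 and H4 for 28 of the 35 genes, beside 12.8% of all 9540 genes. In the 35 genes just before Marc2 this held for 3, and no line had a median deviation beyond 0.14 in size.

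Iars2, a mitochondrial tRNA synthetase, was at 104 and 112 CPM in WT1 and WT3, 94.8 in H4, 45.7 in H7 and 38.2 in M4. Bpnt1, a nucleotidase, was at 44.5, 41.8 and 37.4 CPM in WT1, WT3 and H4 and at 15.4 and 13.3 in H7 and M4. Sertad4 was at 464, 456 and 384 CPM in WT1, WT3 and H4 and at 177 and 246 in H7 and M4. H7 and M4 lay below the other 3 lines for each of these genes, by at least 2-fold for Iars2 and Bpnt1 but not for Sertad4, for which M4 was within 2-fold of H4. Exceptions were Lamb3, a laminin subunit, at 1053 and 1068 CPM in H7 and M4, 1302 in H4 and 741 and 728 in the controls, and Plxna2, a semaphorin co-receptor, at 20.1, 12.96 and 23.9 CPM in H7, M4 and H4 and 3.88 and 2.59 in the controls.

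The stretch touched the comparison of genotypes. With all lines, edgeR called 4 of the 35 genes lower and 1, Plxna2, higher. Without H4 it called 19 lower, but the stretch was set on the values of these same lines, so that count is a description. Without H7 it called 2 lower. Without WT1 or WT3 it called 0 lower, with 5 lower at an unadjusted p under 0.05 in each case. The 4 included Dtl, a ubiquitin ligase adaptor of S phase (log2 difference −1.24 ± 0.26, adjusted p = 0.0479), Cenpf, a centromere protein (−1.14 ± 0.27, adjusted p = 0.0681), and Nek2, a centrosomal kinase (−1.63 ± 0.44, adjusted p = 0.0927), all from edgeR. These 3 are also cell cycle genes, for which H4 was between the low lines and the controls, at 12.2 CPM for Dtl against 22.8 and 23.5 in the controls and 8.088 and 8.999 in H7 and M4.

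The single-cell libraries took no part in setting this stretch and held the same step. Of 34 genes found, 27 were lower in GR18 than in both GR17 and GR19, beside 24.5% of 6291 genes with a mean of 20 CPM. The 34 genes were not held to that mean, and some lay below it. GR18 was at 0.543 times the level of GR17, and GR19 at 1.05 times, as medians over the genes. Before Marc2 the ratios were 1.09 and 1.08. Iars2 was at 30.99 CPM in GR17, 14.6 in GR18 and 35.3 in GR19. A lowered level over these neighbouring genes was therefore present in 2 of 3 bulk SOX4KO lines and 1 of 2 single-cell SOX4KO libraries. DNA copy number was not measured here.

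**Figure D4:**
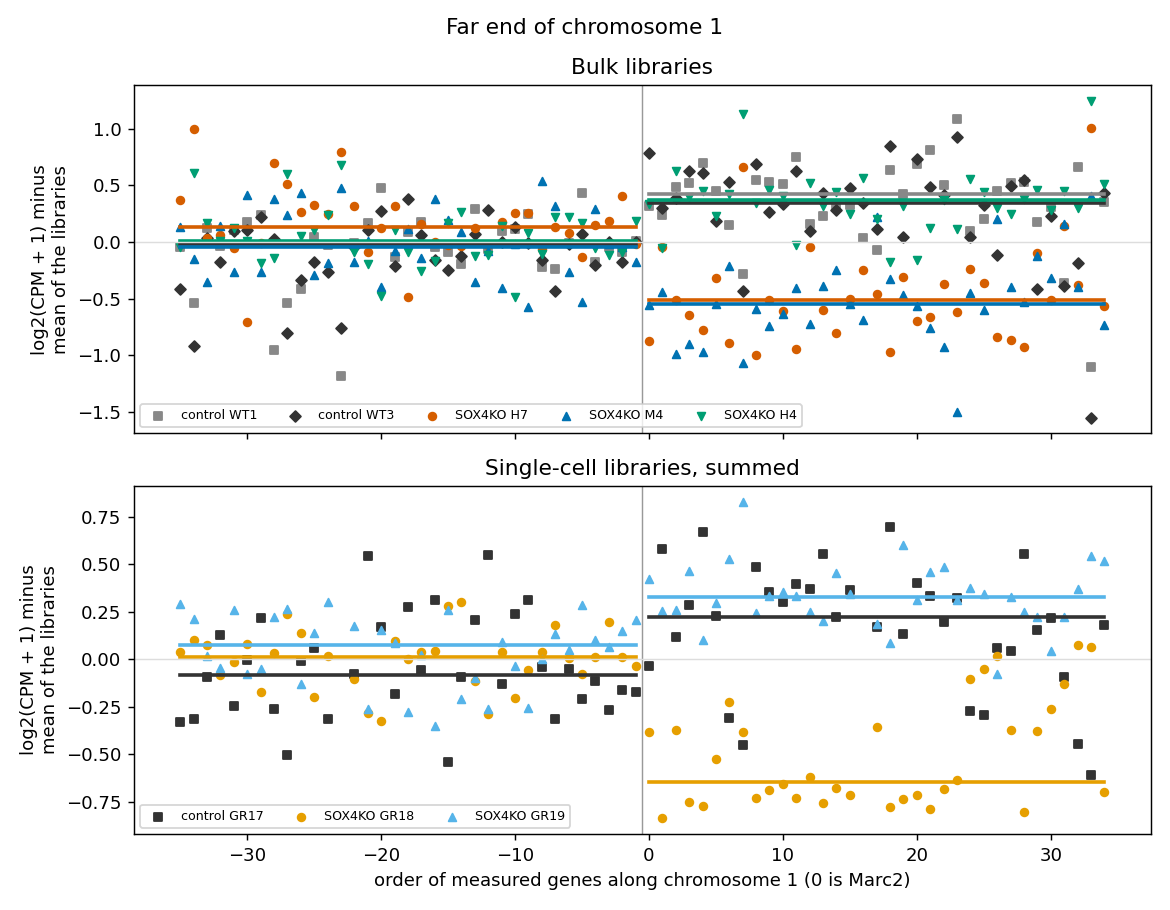
Deviation of log2(CPM + 1) from the mean of the libraries (vertical axis) for 70 neighbouring measured genes of chromosome 1 in order (horizontal axis, gene rank with 0 at Marc2), in the 5 bulk libraries (top) and the 3 summed single-cell libraries (bottom). Points are genes and thick lines are medians before and after Marc2. After Marc2, H7 and M4 drop to −0.51 and −0.54 and GR18 to −0.65, while the other libraries lie above 0.

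Shifts of whole chromosomes were smaller. On chromosome 13, which holds Sox4, H7 lay below the mean of M4 and H4 in 8 of 8 runs of 40 genes, with run medians from −0.39 to −0.06 on the log2 scale. WT1 lay below WT3 in 8 of 8 runs there too, from −0.29 to −0.08, so the controls also differed. On chromosome 4 the controls differed more than the SOX4KO lines, with WT1 above WT3 in 15 of 15 runs by 0.13 to 0.29. Of 226 runs over the genome, 1 was past 0.4 in any line, from Atf5 to Nomo1 on chromosome 7 in M4, at 0.43.

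Genes of ribosomes and respiration ran high in M4 together with short transcripts in general. The 77 measured genes with symbols of cytosolic ribosomal proteins (Rpl or Rps) summed to 27810 and 32640 CPM in the controls. In H7, M4 and H4 they summed to 29480, 40560 and 24560. This set was drawn by symbol and also holds related genes such as Rps19bp1 and Rpl7l1. All 77 were above both other lines in M4, with a median of 0.63 on the log2 scale, and 65 were below both in H4, yet none was 2-fold apart. The 80 measured genes of oxidative phosphorylation, with assembly factors such as Ndufaf1 included, had a median of 0.52 in M4. Between the genotypes, 0 of 78 ribosomal genes were called by edgeR and 0 of 81 by DESeq2, with 0 at an unadjusted p under 0.05 in either. The direction rested on M4, since 27 of the 78 had a log2 difference below 0 with all lines (median 0.06) and 67 without M4 (median −0.19), when edgeR still called 0, with an unadjusted p under 0.05 for 10 lower genes. It also turned without WT1, with 50 below 0 and a median of −0.07.

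In M4 the median deviation from the mean of the 5 lines went from 0.29 in the quintile of genes with the shortest transcripts to −0.22 in the longest, and from −0.14 in the quintile with the lowest GC content to 0.17 in the highest. H7 ran the other way, from −0.14 to 0.14 by length and from 0.12 to −0.11 by GC. The controls and H4 stayed within 0.1 in size. M4 also had the fewest reads, the lowest share of uniquely placed reads on genes (34.3%, against 42.7% to 52.2%) and the highest share in its 10 top genes (19.7%, against 11.3% to 13.5%). With the median of each library removed within bins of transcript length and GC, an alternative chosen after seeing the data, the ribosomal median in M4 was 0.24 and that of oxidative phosphorylation 0.16. The interferon medians were 1.68 in H7 and −1.38 in M4 under the same alternative, beside 1.55 and −1.22 without it.

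**Figure D5:**
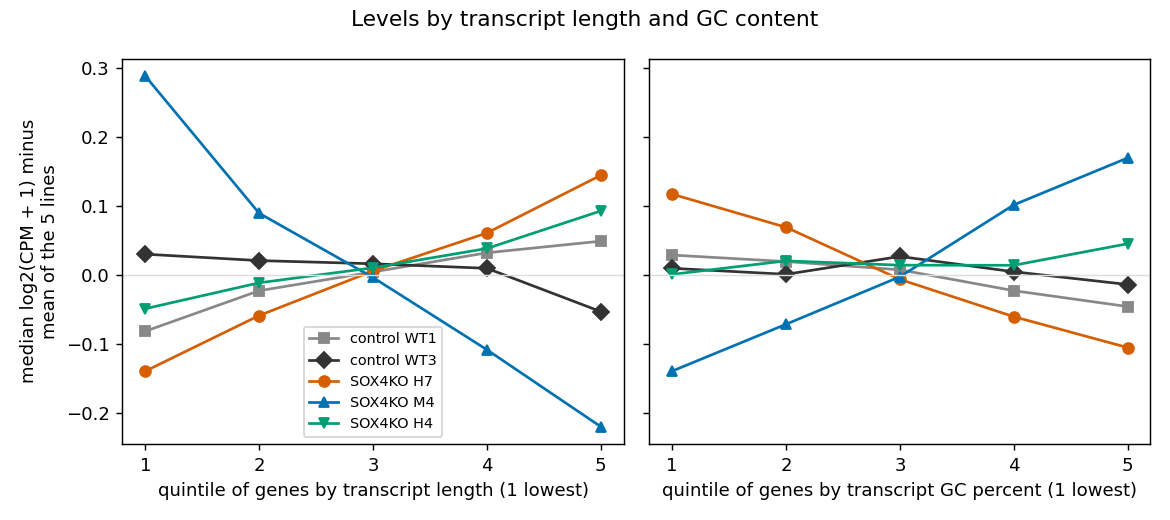
Median deviation of log2(CPM + 1) from the mean of the 5 lines (vertical axis) over quintiles of genes by transcript length (left) and GC content (right), from lowest to highest, for genes with a mean of 10 CPM or more. Each line is 1 library. M4 falls from 0.29 to −0.22 with length and H7 rises from −0.14 to 0.14, and the others stay within 0.1.

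Cell cycle genes ran higher in M4 and lower in H4 by less than 2-fold. The medians of S phase and of G2 and M genes were 0.34 and 0.37 on the log2 scale in M4 and −0.30 and −0.36 in H4. Of 32 measured S phase genes 0 were apart in any line, and of 48 G2 and M genes 1 was, which is Cdca3 in M4, beside 3.42% of all genes, so these counts are near the background. The summed S phase level was 1211 and 1281 CPM in WT1 and WT3 and 802, 949 and 707.5 in H7, M4 and H4, so all 3 SOX4KO lines were below both controls. Genes of the p53 response, hypoxia, cholesterol synthesis and the Notch and Wnt pathways had 0 of 23, 1 of 28, 0 of 27, 0 of 11 and 1 of 16 measured members apart, beside 3.42% of all genes.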

How the data were processed

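The counts deposited by the authors are of reads on each gene in the bulk libraries and of UMIs on each gene in each well in the single-cell libraries, and none had been normalized. Per the labels, bulk libraries were made with a directional kit, and the submitters' processing notes name STAR 2.4.2a, HTSeq and the mouse build NCBIM37 (mm9), without stating which step used which. The annotation used for symbols, gene order and transcript length was GENCODE of GRCm38, so no coordinate of a measured gene is given, and promoter coordinates are of GRCm38.p6.

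Counts were filtered with filterByExpr and scaled by TMM in edgeR 4.0.16 (R 4.3.3). Line differences used log2(CPM + 1), a 2-fold gap to both other SOX4KO lines and no test. Genotypes were compared with glmQLFit and glmQLFTest, with Benjamini-Hochberg adjustment and calls at an adjusted p under 0.1. DESeq2 1.42.0 was an alternative. Rows that name no gene were left out: ambiguous reads came to 2.03% to 3.73% of reads on genes. Transcript length and GC were those of the longest transcript and were found for 99.5% of measured genes. Wells with fewer than 1000 UMIs were left out, and no doublet caller was run because cells were only summed per library.

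Genes were named if they had a mean of 10 CPM and were among the 5 widest gaps for a line and direction, or were members of a list that were apart or among the 4 widest gaps of it. B2m, Cd68, the GTPases, Krt8, Epcam, the genes of chromosome 1 and Zdhhc20 and Rcbtb1 were chosen after their values were seen. The same holds for the fibroblast markers, the other antigen presentation genes, and Csn1s1 with the secretory genes named beside it. The comparison, the members and the lists were chosen with earlier results of these data known. On simulated data the edgeR step recovered 195 of 200 genes changed 3-fold among 11682, with 24 unchanged genes called. With counting error only, the line rule recovered 200 of 200 genes changed 4-fold among 9540, with 1 unchanged gene past it. Spread between clones was not simulated, so how often it carries an unchanged gene past the rule was not measured. Of the interferon response list, 1 gene is counted in the totals but not reported singly here. Alternatives were other scalings, pseudocounts, filters and folds, equal depth, each line left out and bins of length and GC.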

Additional observations from a re-analysis of the deposited data

Results flagged for a closer look

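Reads that overlap more than 1 gene are counted by HTSeq as ambiguous and enter none of the comparisons above. Their share of reads on genes was 2.03% in WT1 and 2.24% in WT3, and 3.73% in H7, 2.8% in M4 and 3.21% in H4, so every SOX4KO line lay above both control lines and the SOX4KO lines differed among themselves. What these reads overlap is not recorded in the counts, and the difference was not tested.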

How the results depend on the processing

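No paired analysis was possible because the lines are independent clones with no number shared between genotypes. With a pseudocount of 5 CPM the genes higher and lower were 76 and 16 in H7, 35 and 53 in M4 and 72 and 51 in H4, and with a mean of 10 CPM they were 71 and 36, 44 and 94, and 61 and 60. At 4-fold they were 25 and 4, 10 and 16, and 27 and 25. With length and GC bins removed, M4 had 73 higher. Leaving out 1 SOX4KO line leaves a pair, with 407 to 482 genes higher and 360 to 394 lower in H7, 394 to 427 and 451 to 482 in M4, and 360 to 451 and 407 to 427 in H4. Genes 2-fold apart with the pseudocount of 5 CPM were 90 for WT1 and WT3, 355 for H7 and M4, 322 for H7 and H4 and 349 for M4 and H4, and with a mean of 10 CPM they were 128, 447, 324 and 441. The median difference of H7 and M4 was 0.30 with that pseudocount and 0.26 with length and GC bins removed, and that of M4 and H4 was 0.27 with the bins removed. The pair of controls stayed the closest under each of these. DESeq2 size factors and equal depth left every count of genes within 1.5 times.

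Genes called between genotypes numbered 1008 higher and 678 lower with no filter beyond 1 count. With 1 line left out they were 30 to 624 higher and 26 to 382 lower, and the lowest counts were without WT3 (30 and 26) and without WT1 (93 and 37). With length and GC bins removed, the median of luminal keratin and adhesion genes in M4 was −0.22 and of antigen presentation genes −0.72. In runs of 25 genes, 2 were past 0.4 in H7, 2 in M4 and 1 in H4. Of the named genes, Sh2d4a in M4 had a gap of 0.99 with a pseudocount of 5 CPM, under the 2-fold limit. The cause of these differences was not tested.

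Depth limits genes of few reads: in H7, M4 and H4 a floor of 3 reads is 0.783, 1.08 and 0.719 CPM, and intervals cover counting error only.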
